A study of Homo sapiens with 6 samples.

Results

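The genes of cholesterol and fatty acid synthesis were followed in HaCaT, a line of immortalised human keratinocytes, after a small interfering RNA (siRNA) against PSENEN had been transfected. PSENEN encodes a subunit of gamma-secretase, a protease that cuts Notch receptors among other proteins within the membrane. The set holds 32 named genes of the 27988 gene names in the 6 libraries: 18 enzymes of sterol synthesis, 8 enzymes of fatty acid synthesis, 4 genes of the sterol-sensing system, the sterol carrier gene STARD4, and CPT1A of fatty acid oxidation. For each gene and library, the TPM (an abundance scaled to transcript length, which sums to about the same total in every library) of all transcripts carrying the gene's reference name were added. All 32 passed the low-level filter, at least 1 TPM in at least 3 libraries, which 15647 genes passed in all.

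The compared groups were 3 PSENEN siRNA libraries, from cells given 100 pmol of that siRNA, and 3 mismatch siRNA libraries, from cells given a siRNA with mismatches as negative control, whose amount the labels do not give. Both groups were unedited HaCaT cells in high-glucose Dulbecco's medium with 10% fetal calf serum, transfected with Lipofectamine, and total RNA was sequenced. RNA was taken at 48 h and 72 h. The labels do not say which time was sequenced, nor whether the libraries of a group came from separate cultures, so p-values measure the spread between these libraries, which may be technical. In bulk RNA, fewer cells expressing a gene and less RNA per cell cannot be told apart.

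Cells make cholesterol from acetyl-CoA through mevalonate, isopentenyl diphosphate, squalene and lanosterol, and they make fatty acids from the same acetyl-CoA through malonyl-CoA. Both routes are under SREBP transcription factors, which SCAP carries from the endoplasmic reticulum to the Golgi for cleavage and which INSIG proteins hold back when sterols are abundant. In epidermis, keratinocytes use cholesterol and fatty acids, with ceramides, to build the lipid layers of the skin barrier.

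The targeted gene, PSENEN, had 1.75, 2.08 and 1.496 TPM after its own siRNA, and 6.58, 8.85 and 6.55 TPM in the controls. The groups did not overlap (change -1.58 in log2(TPM + 1), SE 0.183, limma adjusted p = 0.0471; exact two-sided permutation p = 0.1, the smallest that 3 against 3 libraries allow). The libraries held an estimated 9.16 to 11.9 gigabases of aligned sequence with PSENEN siRNA and 11.5 to 15.6 gigabases with mismatch siRNA. Reference transcripts listed numbered 66581 to 70095 against 71115 to 74608, without overlap. The part of depth in the changes was not tested. Over genes, the rank correlation of libraries was 0.911 to 0.922 within a group and 0.902 to 0.913 across groups. All 10 keratinocyte markers had values, 5 of them lower in every PSENEN siRNA library than in any mismatch siRNA library and none higher, and their summed level was 3388 to 4238 TPM against 3582 to 7917 TPM. Up to 96.5% of KRT14, and 90.4 to 99.8% of KRT15, was in assembled transcripts without a reference name. With those that share an intron added, 7 of the 10 were lower without overlap, and the sums, 3898 to 4610 TPM against 5727 to 9288 TPM, no longer overlapped. Over all genes, intron-sharing transcripts held 5.37 to 5.74% of the TPM with PSENEN siRNA and 6.07 to 6.80% with mismatch siRNA. The keratinocyte list's part in the changes of the lipid genes was not tested. By reference transcripts, under 1 TPM in every library were 5 of 6 fibroblast markers, 4 of 4 melanocyte markers, 3 of 3 endothelial markers, 3 of 4 immune markers and 5 of 6 adipocyte and sebocyte markers. The summed levels, PSENEN siRNA against mismatch siRNA, were 0.460 to 1.01 against 1.18 to 1.47 TPM for the fibroblast list, up to 0.229 against up to 0.545 TPM for the melanocyte list, and up to 0.324 against 0.162 to 0.230 TPM for the endothelial list. They were 2.501 to 6.19 against 0.486 to 4.36 TPM for the immune list, all of it CD68, and 0.117 to 1.04 against 0.753 to 3.91 TPM for the adipocyte and sebocyte list, all of it FABP4. With assembled transcripts that share an intron, VWF reached 4.425, PMEL 1.95 and CDH5 1.06 TPM. The sums were then 0.550 to 2.335 against 1.99 to 2.69 TPM (fibroblast) and up to 0.956 against up to 1.95 TPM (melanocyte). They were 1.34 to 1.855 against 1.18 to 5.30 TPM (endothelial) and 1.00 to 1.67 against 0.753 to 3.91 TPM (adipocyte and sebocyte). The immune sum, CD68, was 4.93 to 7.045 against 0.486 to 4.36 TPM, without overlap.

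Of the 32 genes, 2 passed the test over all genes (limma on log2(TPM + 1) with a mean-variance trend, Benjamini-Hochberg adjusted p under 0.05), and both fell: CYP51A1 and CPT1A. Over all 15647 genes tested the share called was 0.409% in either direction and 0.281% lower. A further 8 genes were lower in all 3 PSENEN siRNA libraries than in any mismatch siRNA library without passing the test: HMGCS1, MVD, SQLE, FDPS, PMVK, ACAT2, STARD4 and ACLY. DHCR7 and ELOVL5 were higher in all 3, also without passing it. Counting the 2 called genes, 37.5% of the set had groups that did not overlap, 31.25% of it lower, beside 21.9% of all genes tested in either direction, 13.7% lower and 8.21% higher. An unadjusted p under 0.05 was reached by 7 members and by 2031 of all genes tested.

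**Figure D1:**
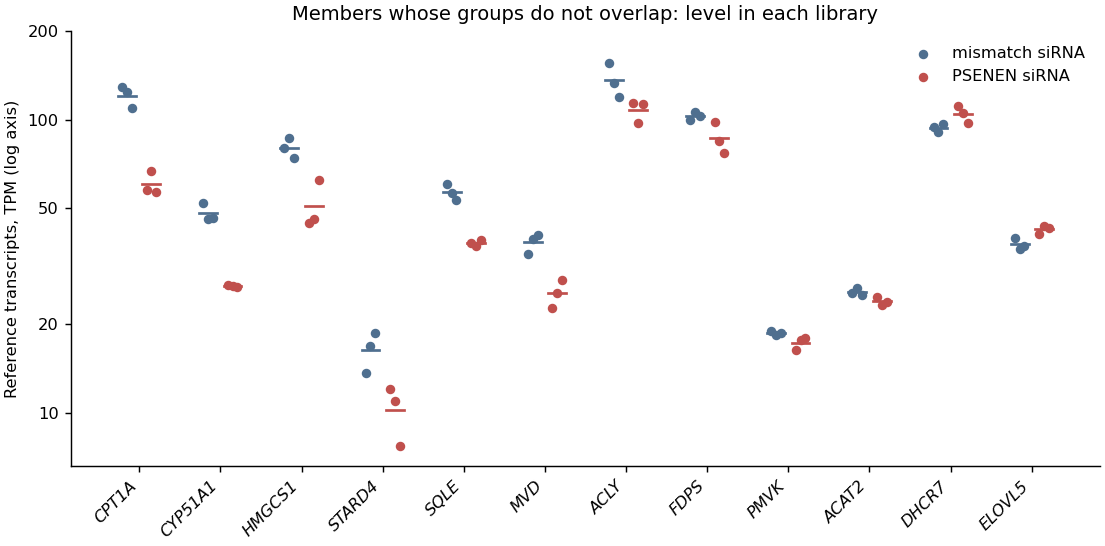
Level in each library of the 12 genes whose groups did not overlap. Each point is the summed reference-transcript TPM of 1 library on a log axis, blue for mismatch siRNA and red for PSENEN siRNA, and the bar is the mean of 3. CPT1A and CYP51A1 stand farthest apart, and the last 2 genes, DHCR7 and ELOVL5, are the ones with higher PSENEN siRNA values.

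CYP51A1 (ENSG00000001630, GRCh38 chr7:92112151-92134803, minus strand) encodes lanosterol 14-alpha demethylase, the cytochrome P450 that starts the conversion of lanosterol. It was at 27.3, 27.0 and 26.9 TPM with PSENEN siRNA and at 52.1, 45.9 and 46.0 TPM with mismatch siRNA. The 3 PSENEN siRNA values were nearly equal and all lay below the lowest control. The group means were 27.1 ± 0.187 against 48.0 ± 3.55 TPM (SD, n = 3 each), 1.77-fold lower (change -0.80, SE 0.0984, limma adjusted p = 0.0471). Most of the signal came from the 10-exon transcript ENST00000003100, at 20.5, 23.0 and 25.8 TPM against 47.8, 39.6 and 40.4 TPM. Of the 31-base words in its annotated transcripts, 78.7% also occur in AC000120.2, a read-through annotation that overlaps it on the same strand, so the assignment between them is uncertain.

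CPT1A (ENSG00000110090, GRCh38 chr11:68754620-68844410, minus strand) encodes carnitine palmitoyltransferase 1A, which couples long-chain fatty acids to carnitine at the outer mitochondrial membrane and so admits them to oxidation. It is the single member that acts in oxidation rather than in synthesis or its control. It was at 57.7, 66.6 and 56.6 TPM with PSENEN siRNA and at 129, 124 and 109 TPM with mismatch siRNA. Every treated library was far below every control library. The means were 60.3 ± 5.48 against 121 ± 10.3 TPM (SD, n = 3 each), with a mean of 49.96% of the control (change -0.99, SE 0.112, limma adjusted p = 0.0471). The 19-exon transcript ENST00000265641 held 90.7 to 95.6% of the gene's TPM and was at 54.7, 61.8 and 51.4 TPM against 123, 116 and 102 TPM.

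Neither call survived the loss of a library. Without PSENEN siRNA library 1, 2 or 3 or mismatch siRNA library 1, 2 or 3, the limma adjusted p was 0.107 to 0.157 for CPT1A and 0.112 to 0.176 for CYP51A1, while the changes stayed at -1.06 to -0.94 and at -0.83 to -0.74.

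The 3′ untranslated regions (UTRs) of both called genes hold the 7-base word TGGTTCT. An earlier search of these same libraries had singled that word out among genes with lower levels after PSENEN siRNA, so the sites are shown here with 11 bases on either side. ACACA, FADS2, SCD and ELOVL5, for which no change passed the test, hold the word too. In the lines below, taken from the GENCODE release 29 transcript with the highest level, lower case is the flank and capitals mark the word.
CYP51A1 site: tgttaactgaaTGGTTCTatcaaatataa
CPT1A site: ttttgaccactTGGTTCTagttgggcctg
SCD site: cttcaggatatTGGTTCTtcccctcatag
ELOVL5 site: agggagcctatTGGTTCTctattagtctt
The word starts at base 156 of the 1514-base 3′ UTR of CYP51A1 and at base 1404 of the 2755-base 3′ UTR of CPT1A. It occurs in 6 of the 32 members (18.75%) and in 1928 of the 10675 tested genes with a 3′ UTR (18.1%). ELOVL5, with the word, was higher in every PSENEN siRNA library, and the 8 uncalled genes with lower values do not hold it in the transcripts used (that of FDPS has no annotated 3′ UTR). The word was picked from these same libraries, so its presence in lower genes is not separate evidence. The siRNA sequence was not given in the sources used here, so no match between it and the word was checked. Whether the siRNA acts at these sites was not tested.

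The early steps, from acetyl-CoA to farnesyl diphosphate, were carried by genes of differing behaviour. HMGCS1 (GRCh38 chr5:43289395-43313512, minus strand) condenses acetyl-CoA units into HMG-CoA. It was at 44.3, 45.9 and 62.3 TPM with PSENEN siRNA and at 79.7, 86.3 and 74.1 TPM with mismatch siRNA. The groups did not overlap, and PSENEN siRNA library 3 lay nearest to the controls (means 50.9 ± 9.95 against 80.0 ± 6.10 TPM, change -0.66, SE 0.155, limma adjusted p = 0.163). Part of the difference lay in the 2-exon, 591-base transcript ENST00000508319, named after its values were seen. It was at 0.460, 0.554 and 17.8 TPM against 21.2, 24.7 and 22.2 TPM. Over 19 alternative analyses the change of HMGCS1 was -0.81 to -0.25.

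MVD, which decarboxylates mevalonate diphosphate to isopentenyl diphosphate, was at 22.8, 25.7 and 28.4 TPM against 34.9, 39.1 and 40.3 TPM. All 3 treated values were below all 3 controls (means 25.6 ± 2.81 against 38.1 ± 2.83 TPM, change -0.56, SE 0.124, limma adjusted p = 0.142). FDPS, the farnesyl diphosphate synthase, was at 98.3, 84.5 and 76.7 TPM against 99.4, 106 and 103 TPM. Here PSENEN siRNA library 1 and mismatch siRNA library 1 almost met (means 86.5 ± 10.9 against 102.9 ± 3.42 TPM, change -0.25, SE 0.114, limma adjusted p = 0.418).

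PMVK, the phosphomevalonate kinase, was at 16.3, 17.6 and 17.9 TPM against 19.0, 18.4 and 18.7 TPM. Its groups were separate by a narrow gap (means 17.3 ± 0.843 against 18.7 ± 0.285 TPM, change -0.11, SE 0.103, limma adjusted p = 0.699). ACAT2, the cytosolic thiolase that makes acetoacetyl-CoA, was at 24.9, 23.3 and 23.8 TPM against 25.6, 26.7 and 25.3 TPM. The gap was as narrow (means 24.0 ± 0.819 against 25.9 ± 0.772 TPM, change -0.10, SE 0.0960, limma adjusted p = 0.683). ACAT2 shares 50.3% of its 31-base words with other annotated genes.

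The other early enzymes had overlapping groups. MVK, the mevalonate kinase, averaged 13.5 ± 1.67 against 7.84 ± 4.93 TPM, with the mismatch siRNA libraries spread from 3.10 to 12.95 TPM. Up to 74.3% of MVK was in assembled transcripts, and with them it averaged 14.6 against 13.3 TPM and its change went from 0.88 to 0.11. IDI1, which isomerises isopentenyl diphosphate, averaged 30.8 ± 2.54 against 31.1 ± 21.2 TPM. Mismatch siRNA library 2 stood apart for IDI1, at 6.69 TPM beside 41.6 and 45.1 TPM in the other two, and without it the change was -0.48 rather than 0.36, with an adjusted p of 0.341 by limma.

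From squalene to lanosterol, SQLE had separate groups. It encodes squalene epoxidase, a rate-limiting enzyme of the pathway. SQLE was at 37.8, 36.9 and 38.7 TPM with PSENEN siRNA and at 60.2, 56.1 and 53.0 TPM with mismatch siRNA, and 98.7 to 99.6% of that was the 11-exon transcript ENST00000265896. The treated libraries fell in a narrow band well under the controls (means 37.8 ± 0.888 against 56.4 ± 3.64 TPM, 1.49-fold lower). The change, -0.56 with an SE of 0.0944, missed the threshold (limma adjusted p = 0.0863). FDFT1, the squalene synthase, averaged 75.7 ± 12.0 against 70.5 ± 13.9 TPM and LSS, the lanosterol synthase, averaged 22.5 ± 3.46 against 20.3 ± 3.18 TPM. Both had overlapping groups.

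After CYP51A1, no later enzyme of the sterol route was lower without overlap by reference transcripts, beside 13.7% of all genes tested. So few genes cannot be told from that share. With assembled transcripts added, TM7SF2 was lower without overlap, at 4.015, 4.01 and 2.99 TPM against 4.255, 6.07 and 6.61 TPM. MSMO1, the C4 methylsterol oxidase, averaged 18.6 ± 2.70 against 23.4 ± 2.97 TPM. NSDHL, the C4 dehydrogenase that acts with it, averaged 19.7 ± 1.27 against 23.9 ± 3.84 TPM. TM7SF2, a C14 sterol reductase, was among the lowest of the set at 3.67 ± 0.591 against 4.64 ± 1.28 TPM, and HSD17B7, the 3-keto sterol reductase, was at 7.76 ± 1.46 against 7.17 ± 1.37 TPM. HSD17B7 shares 22.7% of its 31-base words with other annotated genes, mainly the pseudogene HSD17B7P2, so its level is uncertain. The shares of FDPS, IDI1 and HMGCS1 were 23.3%, 16.3% and 16.3%, so the same limit holds for them.

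EBP, the sterol isomerase, was erratic in both groups, at 49.7 ± 24.3 against 43.6 ± 26.8 TPM. SC5D, the C5 desaturase, averaged 40.7 ± 9.83 against 30.8 ± 6.68 TPM, with overlap. DHCR7, which reduces 7-dehydrocholesterol to cholesterol and so ends the route, was the only sterol gene with higher values in every PSENEN siRNA library, 111, 105 and 97.2 TPM against 94.4, 90.3 and 96.6 TPM. The third treated library and the third control were nearly equal (means 104.5 ± 6.83 against 93.8 ± 3.18 TPM, change 0.15, SE 0.0902, limma adjusted p = 0.525).

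**Figure D2:**
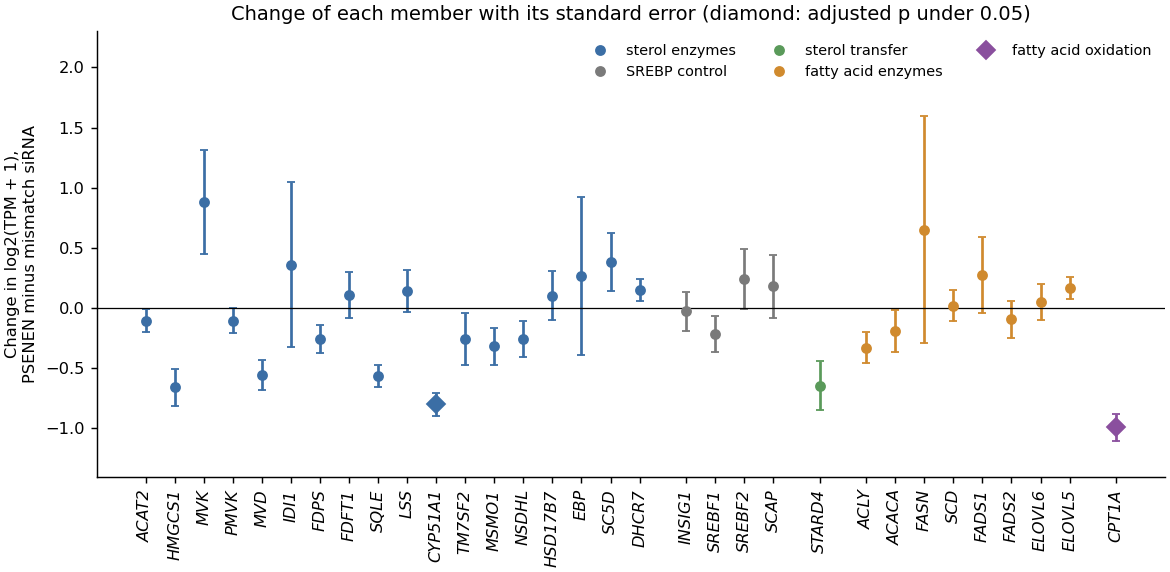
Difference in log2(TPM + 1), PSENEN siRNA minus mismatch siRNA, of all 32 genes in pathway order. Bars are the standard errors of the limma fit, colours mark the lists, and diamonds mark the 2 genes with an adjusted p under 0.05, CYP51A1 and CPT1A. FASN, IDI1 and EBP have the widest bars.

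Within the sterol-sensing system none of the 4 genes changed past the limma test (0 with an unadjusted p under 0.05), and all 4 had overlapping groups by reference transcripts. Over all genes tested 0.409% were called and 21.9% had groups that did not overlap, and 4 genes are too few to be told from these shares. With assembled transcripts added, SREBF2 was higher without overlap (means 68.7 ± 4.16 against 60.6 ± 2.69 TPM). SREBF2, which encodes SREBP-2, the factor most tied to sterol genes, averaged 43.5 ± 12.0 against 36.3 ± 7.79 TPM. SREBF1, which encodes SREBP-1, averaged 66.1 ± 5.28 against 77.4 ± 14.2 TPM. SCAP, the escort of both, averaged 20.2 ± 5.12 against 17.7 ± 4.48 TPM. INSIG1, itself a well-known SREBP target, averaged 28.1 ± 0.866 against 29.1 ± 6.07 TPM, and the 3 treated values, 27.4 to 29.1 TPM, lay inside the control range of 23.6 to 35.6 TPM.

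STARD4, a cytosolic sterol carrier and SREBP-2 target, was at 12.1, 10.96 and 7.68 TPM with PSENEN siRNA and at 13.7, 16.8 and 18.8 TPM with mismatch siRNA. The groups were separate, with treated library 1 and control library 1 closest (means 10.2 ± 2.28 against 16.4 ± 2.55 TPM, change -0.64, SE 0.204, limma adjusted p = 0.283). Its leading 6-exon transcript ENST00000296632 was at 3.01, 3.64 and 7.49 TPM against 12.6, 14.6 and 16.0 TPM. With assembled transcripts added, however, STARD4 was at 19.7, 11.6 and 9.18 TPM against 18.7, 16.8 and 21.0 TPM, and the groups overlapped.

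Of the fatty acid enzymes, none passed the test, and SCD stood out for its level. SCD, the stearoyl-CoA desaturase that makes monounsaturated fatty acids, was the highest of the 32 genes, with 1 reference transcript at 423, 409 and 392 TPM against 341, 412 and 462 TPM. The treated values lay inside the control range (means 407.8 ± 15.4 against 404.9 ± 60.5 TPM). ACLY, which splits citrate into acetyl-CoA and so feeds both routes, was at 113, 97.2 and 113 TPM against 155, 133 and 120 TPM. These groups did not overlap (means 107.8 ± 9.22 against 136.1 ± 18 TPM, change -0.33, SE 0.129, limma adjusted p = 0.363), but they did once assembled transcripts were added.

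ELOVL5, an elongase of polyunsaturated fatty acids, was at 40.6, 43.3 and 42.8 TPM against 39.5, 36.1 and 37.0 TPM. Every treated value was above every control by a small step (means 42.2 ± 1.43 against 37.5 ± 1.76 TPM, change 0.17, SE 0.0928, limma adjusted p = 0.503). The elongase ELOVL6 averaged 13.9 ± 2.003 against 13.3 ± 1.24 TPM. Of the fatty acid desaturases acting on polyunsaturated chains, FADS1 averaged 48.6 ± 2.82 against 42.5 ± 16.8 TPM and FADS2 was low, at 3.74 ± 0.394 against 4.06 ± 0.411 TPM. ACACA, the acetyl-CoA carboxylase that makes malonyl-CoA, averaged 33.7 ± 6.78 against 38.3 ± 4.52 TPM. All of these but ELOVL5 overlapped.

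FASN, the fatty acid synthase, varied too widely within each group for a difference to be read from reference transcripts, at 38.4, 158 and 21.7 TPM against 102, 17.6 and 18.2 TPM (means 72.6 ± 74.3 against 45.8 ± 48.3 TPM). Its 43-exon transcript ENST00000306749 ranged from 0.00163 to 141 TPM. In the libraries where it was low, assembled transcripts that share an intron with FASN but carry no reference name held most of the signal, up to 87.6% of the total. With those added, FASN was at 109, 158 and 175 TPM against 128, 134 and 127 TPM, far more even, and the groups still overlapped.

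**Figure D3:**
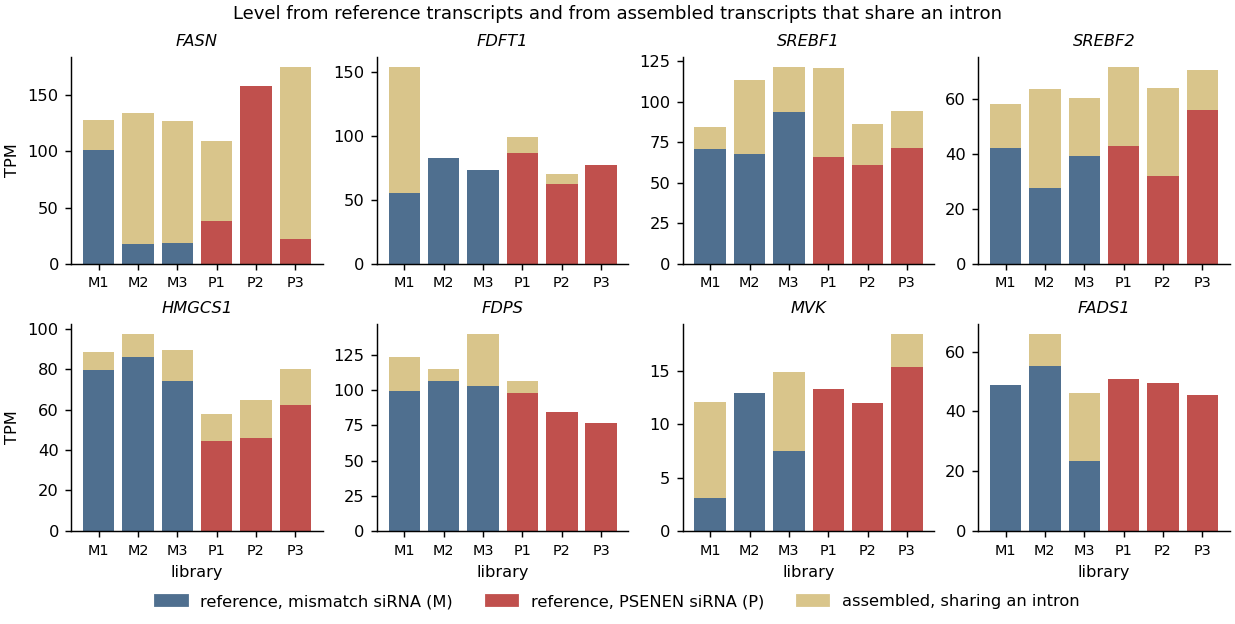
TPM of 8 genes in each library, mismatch siRNA libraries M1 to M3 and PSENEN siRNA libraries P1 to P3. The lower part of each bar is reference transcripts and the sand-coloured part is assembled transcripts that share an intron with the gene. FASN has most of its signal in the assembled part in 4 libraries, while HMGCS1 stays lower in P1 to P3 with either sum.

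Adding such transcripts to every gene left CYP51A1 (adjusted p = 0.0396) and CPT1A (adjusted p = 0.0327) as the called members in limma, among 84 of 16428 genes called (0.511% in either direction, 0.347% lower). Neither gene had such transcripts, so its values were unchanged and only the other genes moved its adjusted p. Over all genes of that sum, 22.3% had groups that did not overlap, 14.5% lower and 7.81% higher, and of the 32 members 9 were lower and 3 higher. The added transcripts held 5.37 to 5.74% of the TPM with PSENEN siRNA and 6.07 to 6.80% with mismatch siRNA. The addition thus differs between groups, and its part in the separations below was not tested. Of the genes described, HMGCS1, MVD and FDPS kept separate groups, and TM7SF2 gained them. SQLE, PMVK and ACAT2 had no such transcripts, so their separate groups could not change. FDPS was then at 106, 84.5 and 76.7 TPM against 123, 115 and 139.9 TPM, a wider gap than from reference transcripts alone. FDFT1 turned from a positive to a negative change, and mismatch siRNA library 1 went from 55.4 to 154 TPM. SREBF2 became higher in every PSENEN siRNA library, at 71.6, 63.9 and 70.6 TPM against 58.1, 63.5 and 60.3 TPM.

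For several genes the split among reference transcripts differed between groups more than their sum did. The following were picked out after their values were seen and were not tested. The FDPS transcript ENST00000467076 was at 4.82, 0.00569 and 0.138 TPM with PSENEN siRNA and at 36.5, 47.9 and 30.9 TPM with mismatch siRNA. ENST00000447866 of the same gene was the reverse, at 45.7, 69.9 and 45.5 TPM against 15.8, 15.8 and 17.6 TPM. Both span 10 exons of the same locus, so the assembler's division between them is uncertain. For MVK, ENST00000539575 was at 12.65, 11.4 and 7.18 TPM against 0.104, 0.754 and 3.46 TPM. For SREBF1, whose signal was spread over 19 reference transcripts, the leading transcript ENST00000395757 overlapped between groups, at 10.65 to 27.5 TPM against 19.8 to 33.8 TPM.

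The sterol and fatty acid lists were then set side by side. Of the 18 sterol enzymes, 1 was called, 7 were lower and 1 was higher without overlap, and 10 of the 18 changes were negative, with a median of -0.10. Of the 8 fatty acid enzymes, none was called by limma (1 had an unadjusted p under 0.05), 1 was lower and 1 higher without overlap, and 3 of the 8 changes were negative, with a median of 0.04. Over all genes tested 0.409% were called, 13.7% were lower and 8.21% higher without overlap, the median was -0.04 and 54.6% of changes were negative. The difference of the list medians was -0.14 and has no test. It was -0.033 without PSENEN siRNA library 2, -0.08 without PSENEN siRNA library 1, -0.076 without mismatch siRNA library 3 and -0.22 without PSENEN siRNA library 3.

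In single libraries the contrast did not separate the groups. The median log2(TPM + 1) of the sterol list minus that of the fatty acid list was -0.55, -0.90 and -0.58 with PSENEN siRNA and -0.72, -0.34 and 0.34 with mismatch siRNA. The third control library alone had a higher sterol than fatty acid median. With assembled transcripts added, its medians were 5.27 (sterol) and 5.435 (fatty acid), and the sterol median was the lower one in every library. The summed level of the sterol enzymes was 700.0, 612 and 657 TPM against 678, 742 and 762 TPM, and that of the fatty acid enzymes was 712, 809 and 670 TPM against 743, 714 and 711 TPM. Both sums overlapped between groups. With assembled transcripts added, the sterol sum was 734, 650.2 and 679 TPM against 823, 770.3 and 829.8 TPM, without overlap, and the fatty acid sum was 800.2, 819.8 and 853 TPM against 794, 846 and 856 TPM, with overlap. Over all genes, such transcripts held more of the TPM in every mismatch siRNA library than in any PSENEN siRNA library. Their part in the separation of the sterol sums was not tested.

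**Figure D4:**
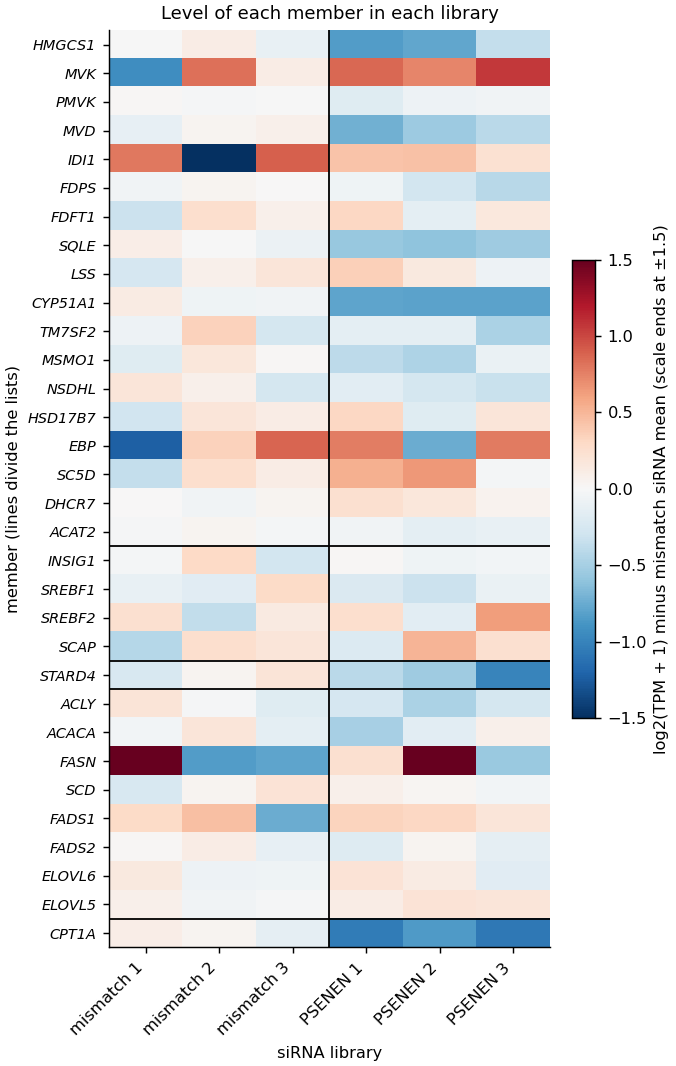
Level of each gene in each library, as log2(TPM + 1) minus the mean of the 3 mismatch siRNA libraries, with lines between the lists (sterol enzymes, sterol sensing, STARD4, fatty acid enzymes, CPT1A). CYP51A1, SQLE, MVD, HMGCS1, STARD4 and CPT1A are below 0 (blue) in all 3 PSENEN siRNA libraries. MVK, IDI1, EBP and FASN vary as much among the mismatch siRNA libraries.

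Promoters of the members were read from RefSeq (GRCh38.p14), as the 250 bases upstream of each start. Of the 32 genes, 28 had an entry and 24 had one within 500 bases of the start of their leading transcript. Motifs were searched on both strands: CCAAT (the NF-Y box), GGGCGG (the GC box bound by SP1), CACGTG (an E-box) and TCACNCCAC (a sterol regulatory element). NF-Y and SP1 are known partners of SREBP. CCAAT occurred in 18 of the 24 promoters, 11 of 13 sterol and 4 of 7 fatty acid ones, and in 32.01% of all 35116 promoters. GGGCGG occurred in 21 of 24 members and in 42.6% of all, CACGTG in 4 and in 6.35%, and TCACNCCAC in 1, SREBF2, and in 0.883%. These shares are descriptions of the letters and say nothing of binding, and GGGCGG depends on base composition, which was not matched.

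The sequences of 5 promoters are shown: HMGCS1 and MVD as sterol enzymes and STARD4 as the sterol carrier that were lower in every PSENEN siRNA library, SCD as a fatty acid enzyme inside the control range, and SREBF2 for its sterol element. Each is on the gene's strand from 5′ to 3′ and stops before the first annotated transcript base, with matches to the NF-Y box, the GC box and the sterol element, on either strand, in capitals.
HMGCS1 promoter: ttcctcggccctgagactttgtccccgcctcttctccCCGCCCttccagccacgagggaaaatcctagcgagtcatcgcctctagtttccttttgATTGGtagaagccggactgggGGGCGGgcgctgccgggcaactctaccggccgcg
MVD promoter: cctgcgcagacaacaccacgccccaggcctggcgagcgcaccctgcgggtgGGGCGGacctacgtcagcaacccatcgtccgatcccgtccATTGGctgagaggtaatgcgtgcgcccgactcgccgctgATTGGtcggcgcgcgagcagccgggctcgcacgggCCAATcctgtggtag
STARD4 promoter: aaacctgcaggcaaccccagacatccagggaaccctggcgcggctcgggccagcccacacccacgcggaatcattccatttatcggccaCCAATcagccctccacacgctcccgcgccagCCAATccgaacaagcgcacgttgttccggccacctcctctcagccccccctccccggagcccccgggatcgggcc
SCD promoter: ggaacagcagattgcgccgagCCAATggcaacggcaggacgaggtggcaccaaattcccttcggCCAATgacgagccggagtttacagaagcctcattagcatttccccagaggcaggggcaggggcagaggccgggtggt
SREBF2 promoter: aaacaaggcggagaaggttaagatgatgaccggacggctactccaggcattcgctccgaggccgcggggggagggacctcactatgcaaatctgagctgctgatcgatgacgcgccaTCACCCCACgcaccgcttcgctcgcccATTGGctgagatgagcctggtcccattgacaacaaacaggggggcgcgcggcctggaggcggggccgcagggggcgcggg
They lie at chr5:43313513-43313662 (HMGCS1, minus strand), chr16:88663162-88663341 (MVD, minus strand), chr5:111512591-111512785 (STARD4, minus strand), chr10:100346983-100347123 (SCD, plus strand) and chr22:41832855-41833078 (SREBF2, plus strand). Over all members with a usable window, CCAAT occurred in 5 of 7 genes lower without overlap, 2 of 2 higher without overlap and 11 of 15 whose groups overlapped. The 2 lower genes without it are CYP51A1 and PMVK, which of the motifs searched hold GGGCGG alone. The upstream bases of CYP51A1 are not shown because they lie inside annotated transcripts.

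Neighbouring pathways were counted from 5 further lists, and limma called no gene of them. An unadjusted p under 0.05 was reached by 1 gene of the sterol and isoprenoid list, 2 of the SREBP and LXR list, 1 of sterol transport and storage, 2 of fatty acid supply and 2 of fatty acid oxidation. The counts of separate groups in these lists stand beside 13.7% lower and 8.21% higher over all genes tested. Among 11 measured genes of other sterol and isoprenoid steps, 1 was lower and 2 were higher without overlap. NUS1, a subunit of the enzyme that makes dolichol precursors from farnesyl diphosphate, was at 8.63, 7.48 and 8.55 TPM against 18.9, 17.4 and 14.1 TPM. Its groups were well apart, yet the change missed the threshold (-0.94, SE 0.1504, limma adjusted p = 0.0799). TMEM97, a membrane protein tied to cholesterol handling, averaged 19.1 ± 0.910 against 14.3 ± 4.93 TPM (change 0.46, limma adjusted p = 0.519).

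Among 12 further regulators of SREBP and LXR (the oxysterol-sensing receptors), 2 were lower without overlap. INSIG2, the relative of INSIG1, averaged 4.32 ± 1.37 against 6.66 ± 0.303 TPM (change -0.56, limma adjusted p = 0.369). NR1H3, which encodes LXR-alpha, averaged 4.27 ± 0.461 against 6.19 ± 1.18 TPM (change -0.44, limma adjusted p = 0.370). With assembled transcripts both overlapped between groups, and ERLIN2, named after its values were seen, was the gene of this list lower without overlap. Of the sterol transport and storage list, 10 of 11 genes were measured, and 1 was higher without overlap. NCEH1, a neutral cholesteryl ester hydrolase, was at 14.1, 14.6 and 15.1 TPM against 8.31, 6.38 and 6.66 TPM. Every treated value was well above every control (change 0.95, SE 0.139, limma adjusted p = 0.0743). With assembled transcripts, up to 91.3% of its level, NPC2 of the same list was lower without overlap. It was at 65.99, 47.6 and 69.8 TPM against 71.9, 83.25 and 74.1 TPM, and was named after its values were seen.

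Of 15 other genes of fatty acid supply that passed the filter, 2 were lower and 1 was higher without overlap. ACSL4, an acyl-CoA synthetase for polyunsaturated fatty acids, was at 1.45, 0.309 and 1.08 TPM against 15.9, 6.93 and 1.57 TPM. The lowest control nearly met the highest treated library (change -1.90, SE 0.687, limma adjusted p = 0.330). From 44.4 to 98.1% of ACSL4 was in assembled transcripts, and with them it was at 18.4, 16.3 and 13.2 TPM against 28.6, 13.97 and 12.7 TPM, with overlap. HACD2, a dehydratase of fatty acid elongation, averaged 59.7 ± 2.69 against 71.9 ± 4.15 TPM (change -0.26, limma adjusted p = 0.319).

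Among 15 further genes of fatty acid oxidation, downstream of CPT1A, 3 were lower and none was higher without overlap (2 lower with assembled transcripts), and the median change was 0.0048. ETFA, an electron carrier subunit of oxidation, averaged 42.1 ± 11.3 against 63.7 ± 4.29 TPM (change -0.61, limma adjusted p = 0.278). ACADVL, the very-long-chain acyl-CoA dehydrogenase, averaged 106.3 ± 6.03 against 134.6 ± 7.08 TPM (change -0.34, limma adjusted p = 0.212). With assembled transcripts, up to 53.5% of its level, ACADVL was at 176, 218 and 129 TPM against 249, 152 and 164 TPM, and its groups overlapped. CPT1A fell past the test and none of the 14 of these genes that were tested did, but the difference between them was not tested.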

How the data were processed

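Per the labels' protocols, total RNA was sequenced in 6 libraries, 3 per group. The authors deposited 1 StringTie assembly per library (the tool is named in the files), giving TPM, FPKM and coverage for each transcript. TPM is a level per transcript length relative to the library, so read counts are unknown. The submitters' processing notes list Bowtie 0.12.2, mm8 and mm9, which are mouse builds. The aligner, build and annotation behind these files were not given in the sources used here, but 98.3 to 98.4% of reference transcripts lie at their GENCODE release 29 (GRCh38) position. Reference transcripts hold 66.4 to 68.6% of the TPM. Assembled ones sharing an intron with them hold 5.37 to 5.74% with PSENEN siRNA and 6.07 to 6.80% with mismatch siRNA. TPM was summed over reference transcripts per gene, and log2(TPM + 1) was fitted with limma 3.58.1 (R 4.3.3), trend on, group only, Benjamini-Hochberg over 15647 genes. The pseudocount of 1 understates changes of low genes. The fit was tested on simulated data. Tables and figures used Python 3.11.15 with pandas 2.3.3, NumPy 2.4.6 and matplotlib 3.10.9. Alternatives were other transcripts, pseudocounts, filters, FPKM, scalings, variance models, a replicate block, assembled bases (coverage times length) and each library left out. Members, neighbour lists and tests were chosen with earlier results of these data known. All members are named, called or non-overlapping ones with all values, and up to 2 non-overlapping genes per neighbour list with the largest changes and a mean of at least 5 TPM. Several regulators and receptors of the pathway were not analysed here.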

Additional observations from a re-analysis of the deposited data

How the results depend on the processing

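The count of all genes called, 64 in the fit reported, was 28 with a pseudocount of 0.1, 109 in assembled bases, 148 in assembled bases with intron-sharing transcripts (chosen after seeing the data), and 7 to 16 with a library left out. The replicate numbers do not pair the samples (correlations of same-numbered libraries -0.049, 6.51e-05 and -0.014), and with a replicate block 1 gene and 0 members were called. The 2 members called became 0 with a pseudocount of 0.1, without a filter, without a trend and with any library left out (0 to 0), and 1, CPT1A, with median-of-ratios scaling and with quantile normalization. CPT1A was called in 9 and CYP51A1 in 7 of 19 alternatives, with adjusted p by limma of 0.0285 to 0.306 and 0.0376 to 0.349. Both kept a negative change throughout. The sterol minus fatty acid difference of -0.14 was -0.04 in assembled bases and -0.22 to -0.033 with a library left out. The list medians moved by less than the spread between libraries, although the fatty acid median was negative in 4 alternatives.

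The sign turned for 12 members, and none of these changes passed the test. With intron-sharing transcripts the changes were -0.023 for ELOVL6, -0.13 for FADS1, -0.26 for FDFT1, 0.012 for INSIG1 and -0.068 for SCAP. In assembled bases ELOVL6 was at -0.36, and with intron-sharing transcripts as well ELOVL6 was at -0.43, ACACA at 0.036, INSIG1 at 0.019 and MVK at -0.046. INSIG1 was at 0.039 in FPKM, 0.012 with median-of-ratios scaling and 0.026 with quantile normalization. With a library left out the changes were -0.34 to 0.77 for EBP, -0.026 to 0.17 for ELOVL6, -0.10 to 0.50 for FADS1, -0.15 to 1.46 for FASN and -0.052 to 0.24 for FDFT1. They were -0.045 to 0.24 for HSD17B7, -0.48 to 0.81 for IDI1, -0.16 to 0.12 for INSIG1, -0.034 to 0.37 for SCAP and -0.10 to 0.12 for SCD. The cause was not tested. The other 20 members kept their sign in every alternative that tested them, 19 for each but TM7SF2 and FADS2, which had 18 because a minimum of 5 TPM left them out. Some alternatives could not turn a sign. The filters, the fit without a trend and the replicate block leave every change as it was. Intron-sharing transcripts leave it for members that have none. The files give no read counts, so depth per gene is unknown.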
